A study of Mus musculus with 30 samples.

Results

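The respiratory chain and ATP synthase genes of the mouse were taken here as 1 group and followed through a day in samples of retinal pigment epithelium (RPE), the pigmented cell layer behind the photoreceptors. Members were genes whose symbols start with Nduf (followed by a, b, c, s or v and a digit), Sdh (a to d), Uqcr, Cox (4 to 8) or Atp5, and the protein genes of mitochondrial DNA (names starting mt-Nd, mt-Co, mt-Cytb or mt-Atp), with pseudogene names (ending -ps) left out. A gene also had to reach at least 1 FPKM (fragments scaled by transcript length and sequencing depth) in at least 5 of the 30 samples. The symbols gave 97 genes and 89 of them passed that filter, out of 16741 genes of the whole table that passed it and 51904 listed. Of the 89 members, 82 are nuclear and 7 are mitochondrial. The 8 that failed are the nuclear Cox8c and Cox7b2 and the mitochondrial mt-Co2, mt-Co3, mt-Atp6, mt-Atp8, mt-Nd3 and mt-Nd4l. Just inside the filter lay Atp5l, at 1 FPKM or more in 6 samples, and just outside it Cox7b2, at that level in 1 sample.

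The samples came from 30 male wild-type C57BL/6 mice of 10 to 13 weeks, 5 of them killed at each of ZT0, ZT2, ZT4, ZT9, ZT14 and ZT19. Zeitgeber time (ZT) counts hours from the switching on of the lights, by convention. No group carried a transgene or a treatment. Each library is 1 eye of 1 mouse, so the replicates are separate animals. Front segment and neural retina were taken off, the eyecup was kept in RNAlater, and clumps of RPE were then lifted from the choroid with forceps, which leaves room for other eye tissue in a sample.

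Complexes I to IV of the inner mitochondrial membrane pass electrons from NADH and succinate to oxygen and pump protons, and complex V, the ATP synthase, uses the proton gradient to make ATP. Most subunits are encoded in the nucleus and imported, while mitochondrial DNA encodes core subunits of complexes I, III, IV and V, so a working complex needs products of both genomes. The RPE is known to rely on mitochondrial respiration, and muscle and heart carry their own versions of several complex IV subunits.

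Sequencing depth was estimated at 12.5 to 23.0 M reads a library (M: mega). Markers of RPE were high, Rpe65 at a median of 934 FPKM and Rlbp1 at 796 FPKM, but so were markers of other eye tissue: the fast muscle gene Mylpf had a median of 2018 FPKM and the corneal keratin gene Krt12 one of 2034 FPKM. The third mouse of ZT14 stands apart, because 557 genes with a median of 10 FPKM or more elsewhere are listed there at 0 (1 to 23 in any other library), and results that rest on it are given with and without it. In these bulk samples, fewer cells of a type and less RNA per cell cannot be told apart.

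The nuclear members were abundant transcripts. Their median level was 164 FPKM, against 9.77 FPKM over all tested genes. By complex, the median of the members' medians was 145 FPKM for the 37 genes of complex I, 141 FPKM for the 4 of complex II, 283 FPKM for the 8 of complex III, 263 FPKM for the 16 of complex IV and 232 FPKM for the 17 named for complex V. Their spread over the 30 samples was that of abundant genes in general: the median SD of log2(FPKM + 1) was 0.38 in the nuclear members and 0.38 in the other 885 genes with a median of at least 100 FPKM, against 0.64 over all tested genes.

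The highest nuclear member was Cox4i1 (ENSMUSG00000031818, chromosome 8, 120668222 to 120674207, mm10), the main form of complex IV subunit 4, with a lowest value of 1223, a median of 1631 and a highest value of 3092 FPKM. In complex I the highest was Ndufa4 (chromosome 6, 11900292 to 11907497), named as a complex I subunit and now usually counted with complex IV, at 722 to 1547 FPKM. The highest of complex V was Atp5b (chromosome 10, 128083273 to 128090391), the catalytic beta subunit, at 749 to 1434 FPKM. Complex III was led by Uqcrh (chromosome 4, 116066965 to 116075071), the hinge protein that docks cytochrome c1, with a median of 539 FPKM, and its lowest member was the core protein Uqcrc1 at 99.2 FPKM. In complex II, which is wholly nuclear, the flavoprotein Sdha had the highest median, 271 FPKM, and the membrane anchor Sdhc the lowest, 114 FPKM. Levels within a complex were thus far from equal.

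Some members were far lower, alternative isoforms among them. Cox4i2, the oxygen-sensitive form of subunit 4, had a median of 5.04 FPKM, and Ndufa4l2, a hypoxia-inducible relative of Ndufa4, one of 9.83 FPKM. Atp5sl (now Dmac2) had a median of 15.4 FPKM and is a complex I assembly factor rather than part of the ATP synthase. Atp5l (chromosome 9, 44912557 to 44920742), subunit g of the ATP synthase, was nearly absent from the table, with a median of 0.284 FPKM and 6 samples at 0. Its annotated transcript shared 76.0% of its 75-base windows, the length of a read, with 10 other genes, the largest such share among the nuclear members. One of them, the processed pseudogene Gm10221, had every window of its own in Atp5l and was itself listed at 0 in 25 samples. Not all of them were near 0. Atp5l2-ps, which held 18.7% of the Atp5l windows, had a median of 1.38 FPKM and 3 samples at 0. Gm4045, with 16.6%, was at 0 in 17 samples and reached 29.4 FPKM. Of the 82 nuclear members, 48 shared no window with another gene.

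**Figure D1:**
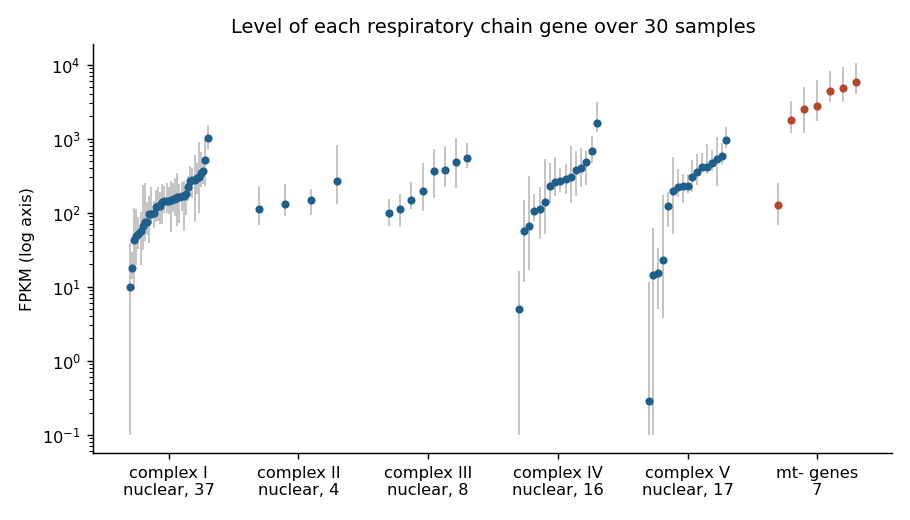
Median FPKM (points) and range over 30 samples (lines) of the 89 members, grouped by complex for nuclear genes, with the 7 mt- genes at the right; the axis is logarithmic and minima below 0.1, including 0, are drawn at 0.1. By median, all mt- genes except mt-Nd6 (129 FPKM) lie above every nuclear gene.

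Of the 13 protein genes of mitochondrial DNA, 7 had values, and by median 6 of these were more abundant than every nuclear member. The median was 5907 FPKM for mt-Cytb, the cytochrome b of complex III (mitochondrial DNA 14145 to 15288), 4831 FPKM for mt-Nd1 (2751 to 3707) and 4428 FPKM for mt-Co1, the catalytic subunit of complex IV (5328 to 6872). The complex I subunits mt-Nd2 (3914 to 4951), mt-Nd5 (11742 to 13565) and mt-Nd4 (10167 to 11544) followed with 2722, 2528 and 1811 FPKM. The lowest was mt-Nd6 (13552 to 14070) at 129 FPKM, the only protein gene of the minus strand. It overlaps mt-Nd5 at the end, and since the use of strand in counting is not given in the sources used here, reads there cannot be told apart.

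The other 6 are the consecutive genes from mt-Co2 to mt-Nd4l. They were listed at 0 in all 30 samples, apart from a value of 0.106 FPKM for mt-Co3 in 1 sample. Mitochondrial genes are cut from long shared transcripts, and the neighbours on both sides of these 6 were abundant. Of the 75-base windows of their annotated transcripts, 99.5% for mt-Co2, 99.5% for mt-Atp6, 99.9% for mt-Co3, 97.8% for mt-Nd3 and 98.7% for mt-Nd4l also occur in a pseudogene on chromosome 1, in a nuclear copy of mitochondrial DNA. For mt-Atp8, which lies between mt-Co2 and mt-Atp6, no window was found in another annotated transcript. Only annotated transcripts were searched. On chromosome 1 the copy of mt-Atp6 (Gm10925) ends at 24614651 and that of mt-Co2 (Gm28661) starts at 24614885. Whether unannotated sequence between them holds a copy of mt-Atp8 was not tested. Among the genes with values, the share was 61.5% for mt-Nd4, 39.8% for mt-Co1, 5.71% for mt-Nd2, 1.66% for mt-Nd5 and 0% for mt-Nd1, mt-Cytb and mt-Nd6.

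The shared windows of 3 genes show that a read of this length could come from either place; each is the middle window of its mitochondrial gene, read on the plus strand in GENCODE M21 on GRCm38, and each is found base for base in the named pseudogene on the minus strand of chromosome 1. The window of mt-Co2 is chrM:7317-7391 and chr1:24615187-24615261 in Gm28661, that of mt-Atp6 is chrM:8230-8304 and chr1:24614274-24614348 in Gm10925, and that of mt-Co3 is chrM:8961-9035 and chr1:24613543-24613617 in Gm28437. No letter is set in capitals because none differs.
mt-Co2: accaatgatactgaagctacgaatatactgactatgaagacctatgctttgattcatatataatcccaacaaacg
mt-Atp6: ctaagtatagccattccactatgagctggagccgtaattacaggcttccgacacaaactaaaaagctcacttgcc
mt-Co3: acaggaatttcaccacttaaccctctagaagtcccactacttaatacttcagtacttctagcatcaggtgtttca

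The pseudogenes of these 3 genes were themselves near 0. Gm28661, Gm10925 and Gm28437 were listed at 0 in 28, 23 and 23 of the 30 samples, and their highest values were 0.247, 0.288 and 0.375 FPKM. All windows of these 3 pseudogenes occur in the mitochondrial gene. Of the other copies, Gm10222 (of mt-Nd4l) was at 0 in all 30 samples. Gm28438 (of mt-Nd3) was at 0 in 26 samples and reached 11.9 FPKM. How reads matching both places were counted is not given in the sources used here. A value of 0 for these 6 genes is therefore a listing and not a measured absence. Of the windows of mt-Nd4 and mt-Co1, 61.5% and 39.8% also occur in another annotated transcript. Gm28439, the copy of mt-Nd4, was at 0 in 25 samples. Gm29216, which held 27.5% of the mt-Co1 windows, was at 0 in 3 samples and had a median of 0.673 FPKM. Whether reads from shared sequence entered the values of mt-Nd4 and mt-Co1, and the sums that hold them, was not tested. The sums over mt- genes below hold the 7 genes with values only.

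**Figure D2:**
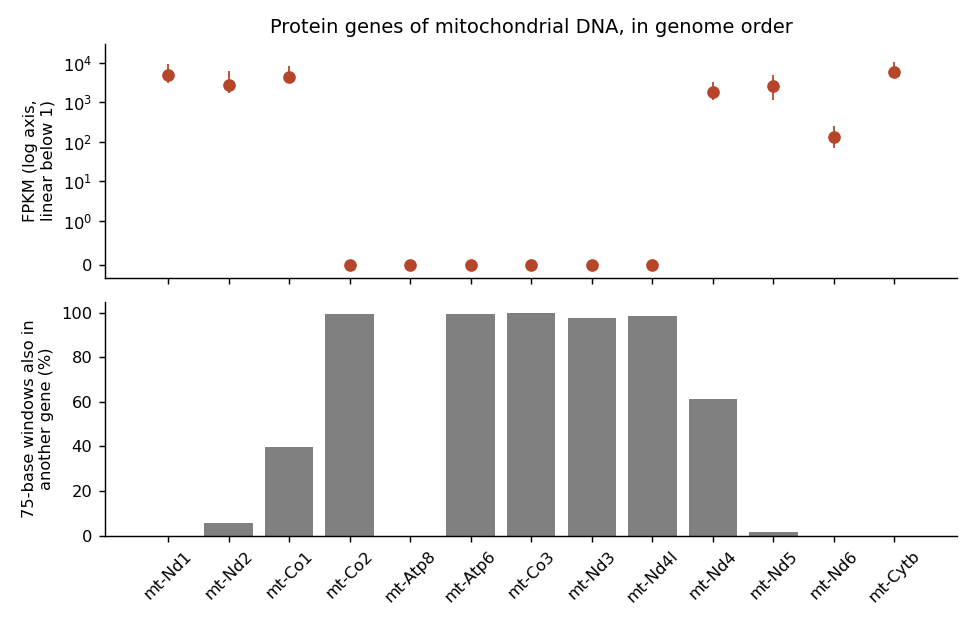
Top, FPKM of the 13 protein genes of mitochondrial DNA in their order along the genome (points, median; lines, range over 30 samples; logarithmic axis, linear below 1). Bottom, percent of each gene's 75-base windows that also occur in another annotated transcript: 5 of the 6 genes at 0 are at 97.8% or more, and mt-Atp8 is at 0%. Unannotated sequence was not searched.

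Complex IV has subunits with a form found in most tissues and a form of heart and skeletal muscle, and the muscle forms were clearly present in these RPE samples. Cox6a2 (chromosome 7, 128205435 to 128206387) had a median of 65.2 FPKM, Cox7a1 (chromosome 7, 30184144 to 30186078) one of 139 FPKM and Cox8b (chromosome 7, 140898945 to 140900446) one of 306 FPKM. Relative to the widely expressed partner in the same sample, Cox6a2 stood at a median of 27.4% of Cox6a1, Cox7a1 at 39.3% of Cox7a2 and Cox8b at 69.5% of Cox8a. The muscle form was the lower one in 29, 30 and 25 of the 30 samples. The testis forms Cox7b2 and Cox8c were listed at 0 in 29 and 30 samples, while Cox6b2, also known from testis, had a median of 56.6 FPKM, 8.01% of Cox6b1.

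The muscle forms varied far more between mice than their partners. Cox6a2 gave 34.1, 57.6, 72.6, 29.1 and 62.6 FPKM at ZT0, 23.6, 63.3, 80.9, 38.2 and 106 at ZT2, and 125, 38.2, 107, 109 and 67.1 at ZT4. It gave 28.0, 16.8, 63.2, 76.6 and 94.8 FPKM at ZT9, 30.7, 26.9, 198.8, 62.8 and 38.7 at ZT14, and 107, 308, 170, 73.9 and 182 at ZT19. The ranges overlap except that every mouse of ZT19 lay above every mouse of ZT0, and the 3 highest mice are 1 of ZT14, the library that stands apart, and 2 of ZT19. The highest value of Cox6a2 was 18.4 times the lowest, against 2.12 times for Cox6a1. For Cox7a1 the ratio was 10.1, against 3.32 for Cox7a2, and for Cox8b it was 5.93, against 2.84 for Cox8a.

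These forms moved with the level of skeletal muscle markers in the sample. Across the 30 samples, log2(FPKM + 1) of Cox6a2 and the mean of the same measure over 20 skeletal muscle markers had a Pearson r of 0.865 and a Spearman rho of 0.843. For Cox7a1 the values were 0.814 and 0.797, and for Cox8b 0.747 and 0.753. Each had an adjusted p of 2.5e-05 (permutation test with 100000 resamples, two-sided, adjusted over a family of 10 genes), which rests on the smallest p the permutations can give, 1e-05. Without the 2 samples farthest from the median muscle score, both of ZT19, r was 0.816, 0.804 and 0.720. Leaving out each mouse in turn, the third of ZT14 included, r ran from 0.837 to 0.895 for Cox6a2, from 0.785 to 0.832 for Cox7a1 and from 0.704 to 0.773 for Cox8b. Within the 3 ranges of animal numbers, which hold 11, 10 and 9 mice, r was 0.925, 0.833 and 0.830 for Cox6a2, 0.938, 0.838 and 0.748 for Cox7a1, and 0.763, 0.740 and 0.805 for Cox8b. Of these, Cox7a1 in the range of 9 mice did not pass (adjusted p = 0.0622 in the permutation test).

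The partners divided. Cox7a2 (r = 0.771, rho = 0.799) and Cox4i1 (r = 0.755, rho = 0.740) followed the muscle score about as closely as the muscle forms, with adjusted permutation p values of 2.5e-05 and 4e-05, and Ndufa4 did so less (r = 0.583, rho = 0.608, adjusted p = 0.00117). Without the 2 farthest samples their r was 0.786, 0.694 and 0.502, and within the range of 9 mice the adjusted permutation p was 0.0622, 0.0622 and 0.33. Cox8a was at the edge (r = 0.383 with an adjusted p of 0.052, rho = 0.439 with 0.0226, permutation tests), and with every sample rescaled to the same total neither passed (r = 0.274 with 0.204, rho = 0.300 with 0.153). Cox6a1 (r = 0.220, rho = 0.218), Cox4i2 (r = 0.0167, rho = 0.0547) and Ndufa4l2 (r = -0.17, rho = -0.16) did not pass, with adjusted permutation p values of 0.305, 0.93 and 0.413 for r. The differences between these correlations were not tested.

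**Figure D3:**
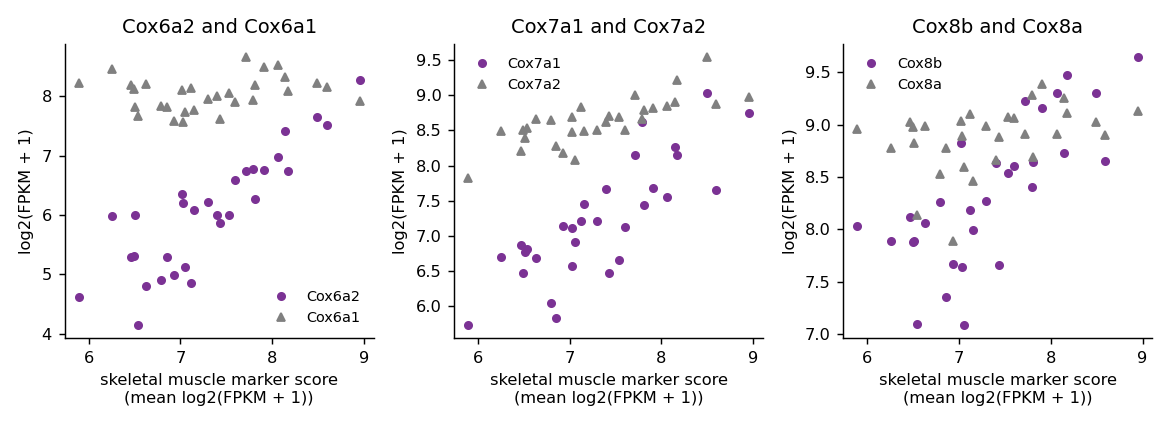
Log2(FPKM + 1) of each muscle form of complex IV (circles) and its widely expressed partner (triangles) against the mean log2(FPKM + 1) of 20 skeletal muscle markers, 1 point per sample. The muscle forms climb with the score (r = 0.865, 0.814 and 0.747), and of the partners Cox7a2 does (r = 0.771) while Cox6a1 stays nearly level (r = 0.220).

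Through the day, both genomes had their highest summed level at ZT19, in the dark phase by convention. The summed FPKM of the 82 nuclear members was 18380, 19236, 18739, 17063 and 21835 in the 5 mice of ZT0, 17674, 21193, 20685, 16431 and 26651 at ZT2, and 26712, 18774, 25831, 23151 and 18253 at ZT4. It was 20605, 17229, 17651, 22853 and 20617 at ZT9, 17245, 18151, 28404, 19675 and 18563 at ZT14, and 27241, 32478, 25134, 20198 and 26286 at ZT19. The means ± SD (n = 5) were 19051 ± 1753 at ZT0 and 26268 ± 4406 at ZT19, and 4 of the 5 mice of ZT19 lay above every mouse of ZT0, while the ranges of ZT19 and of ZT2, ZT4, ZT9 and ZT14 overlap.

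The 7 mt- genes summed to 24214, 18997, 20722, 24352 and 19966 FPKM at ZT0, 16945, 17146, 20019, 17461 and 24446 at ZT2, and 17357, 26335, 18137, 34480 and 21781 at ZT4. They summed to 26331, 21600, 16824, 21138 and 23370 FPKM at ZT9, 20388, 14891, 29170, 24927 and 25927 at ZT14, and 23073, 40762, 29054, 26639 and 42745 at ZT19. The mean was 19204 ± 3183 at ZT2 and 32454 ± 8779 at ZT19 (SD, n = 5), and 2 mice of ZT19 lay above all other samples. The mt- sum was 0.650 to 1.63 times the nuclear sum over the samples, with a median of 1.12. The mean ratio of a time point ran from 0.943 at ZT2 to 1.24 at ZT19. No test was made on these sums.

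**Figure D4:**
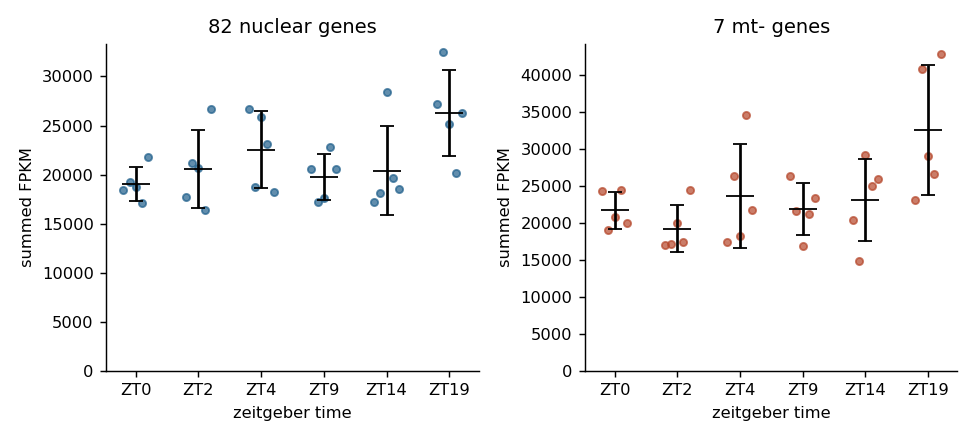
Summed FPKM of the 82 nuclear members (left) and the 7 mt- members (right) in each mouse (points) by zeitgeber time; bars show mean and SD of 5 mice. Both panels are highest on average at ZT19, at 26268 and 32454, with wide spread between mice, and the high point of ZT14 is the library that stands apart.

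Gene by gene, no member passed a test for change over the day. In limma on log2(FPKM + 1), with p adjusted over all 16741 genes by Benjamini-Hochberg, 0 of 82 nuclear and 0 of 7 mt- members had a 24 h rhythm (background: 0.108% of all genes called), and 0 and 0 differed among the 6 time points (background 0.0717%). At an unadjusted p below 0.05, limma's rhythm test gave 4 nuclear and 2 mt- members, against 8.76% of all genes, and the test among time points gave 26 nuclear and 3 mt- members, 31.7% of the nuclear ones, against a background of 8.67%. Leaving out 1 mouse at a time, these counts ran from 2 to 8 and 0 to 5 in the rhythm test and from 17 (without the first mouse of ZT19) to 29 and 0 (without the second or the fifth mouse of ZT19) to 5 among time points. Fitted amplitudes were small beside those of core clock genes. The median was 0.14 (median SE 0.10) for nuclear and 0.24 (median SE 0.10) for mt- members. It was 0.22 (median SE 0.17) over all genes and 1.15 in 7 core clock genes, of which 7 were called. A fitted amplitude cannot be below 0 and grows with noise, so members and all genes are not directly comparable in it. The fitted peak lay between ZT18 and ZT24 in 51 of 82 nuclear members (62.2%), against 24.7% of all genes.

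The smallest p in the test among time points belonged to Atp5c1 (ENSMUSG00000025781, chromosome 2, 10056016 to 10080510), the gamma subunit that forms the turning shaft of the ATP synthase. Its level was 179, 167, 191, 183 and 189 FPKM at ZT0, 177, 243, 264, 177 and 280 at ZT2, and 271, 216, 274, 300 and 229 at ZT4. It was 228, 235, 205, 238 and 194 FPKM at ZT9, 217, 209, 219, 193 and 164 at ZT14, and 248, 394, 282, 256 and 302 at ZT19. Every mouse of ZT19 lay above every mouse of ZT0, ZT9 and ZT14. The time point means spanned 0.68 on the log2 scale, with an adjusted p of 0.265 (limma).

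The accessory complex I genes Ndufb6 and Ndufb2 and the iron-sulfur subunit Sdhb of complex II were also among the smallest p values, with adjusted p values of 0.376, 0.39 and 0.402 and means spanning 0.63, 1.03 and 0.71 on the log2 scale (limma). The 26 nuclear members below an unadjusted p of 0.05 came from every complex: 13 of 37 in complex I, 2 of 4 in II, 1 of 8 in III, 6 of 16 in IV and 4 of 17 in V. In 23 of these 26, and in 65 of all 82 nuclear members, the highest of the 6 means was that of ZT19. All 7 mt- members had their highest mean at ZT19 and their lowest at ZT2.

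In the rhythm test the smallest p values were those of Atp5sl (amplitude 0.42 ± 0.14 SE, adjusted p = 0.463), mt-Nd2 (0.33 ± 0.11, 0.496), Atp5s (0.62 ± 0.22, 0.503), mt-Nd4 (0.24 ± 0.09, 0.545) and Ndufa10 (0.45 ± 0.17, 0.55), all in limma with n = 30. Atp5s (now Dmac2l) was described as a coupling factor of the ATP synthase, and Ndufa10 is an accessory subunit of complex I. Both Atp5s and Atp5sl thus carry an Atp5 symbol by an older name.

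Against that, the direction of the day and night difference was nearly uniform. Day was the mean of ZT2, ZT4 and ZT9, and night that of ZT14 and ZT19. The difference (day minus night, log2 scale) was below 0, meaning higher at night, in 68 of 82 nuclear members (82.9%) and in 7 of 7 mt- members, against a background of 46.7% of all genes. The median was -0.12 for nuclear and -0.33 for mt- members, against 0.02 for all genes. No member passed in limma, whether higher by day (background 0.0119% of all genes) or higher at night (0.0179%). At an unadjusted p below 0.05, 11 nuclear and 5 mt- members were higher at night (background 4.33%) and 0 were higher by day (background 6.21%).

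By complex the members below 0 were 30 of 37 in I, 3 of 4 in II, 8 of 8 in III, 12 of 16 in IV and 15 of 17 in V, with medians of -0.11, -0.08, -0.23, -0.20 and -0.11. The smallest p values were those of Atp5sl (-0.62 ± 0.21 SE) and mt-Nd2 (-0.44 ± 0.15), both with an adjusted p of 0.337, followed by Ndufb6 (-0.39 ± 0.14, adjusted p = 0.353), mt-Nd4 (-0.33 ± 0.12, 0.361) and mt-Nd1 (-0.33 ± 0.13, 0.381), all in limma. The median SE of a nuclear member's difference was 0.14, and the 95% intervals of single members reached from -1.61 (Atp5s) to 1.48 (Ndufa4l2). Differences of some size were therefore not detectable. Recovery was also tried with known changes put only into more abundant genes, so its shares do not cover low members such as Atp5sl and Atp5s. In data made with differences of known size, limma recovered 2% of day and night differences of 0.25 on the log2 scale. It recovered 26.8% of those of 0.5 and 83.2% of those of 1. For 24 h rhythms with amplitudes of 0.25, 0.5 and 1 the shares were 5.6%, 54.8% and 92%. An amplitude is counted from the mean to the peak, so it is a larger change than a day and night difference of that number. The shares of the 2 tests are therefore not a comparison at equal size.

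mt-Nd2, a membrane subunit of complex I, shows what lies behind these values. Its level was 3018, 2469, 2699, 3267 and 2394 FPKM at ZT0, 1988, 2043, 2677, 2082 and 3292 at ZT2, and 2288, 3128, 2219, 4553 and 2666 at ZT4. It was 3176, 2667, 1845, 2629 and 2745 FPKM at ZT9, 2463, 1742, 4190, 3199 and 3226 at ZT14, and 3200, 6200, 4083, 3265 and 6112 at ZT19. The 2 highest values are from ZT19, and every mouse of ZT19 lay above every mouse of ZT9. The lowest single value of all 30 is also a night value, from ZT14. Leaving out 1 mouse at a time, the difference of mt-Nd2 ran from -0.53 to -0.37. The differences of the other mt- members were also below 0, at -0.33 (mt-Co1, adjusted p = 0.404), -0.30 (mt-Cytb, 0.425), -0.32 (mt-Nd5, 0.526) and -0.20 (mt-Nd6, 0.681; all limma). Their order of mice was not that of mt-Nd2 in every case: the lowest value of mt-Nd5, 1173 FPKM, was from ZT4, and the lowest of mt-Nd6, 68.7 FPKM, from the third mouse of ZT14. Without ZT19, which leaves ZT14 as the only night time point, the difference of mt-Nd6 was 0.08.

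The samples of ZT19 also differed in tissue markers. The summed FPKM of the 20 skeletal muscle markers was 8542 to 33397 at ZT19 (median 16845), against 4283 to 8160 at ZT0 (median 6437), 2972 to 16710 at ZT2 (7472), 4608 to 14768 at ZT4 (12493), 4562 to 11511 at ZT9 (6541) and 4827 to 22632 at ZT14 (6839). The 12 ocular surface markers went the other way, with 2459 to 3911 FPKM at ZT19 (median 3668) against 9996 to 19855 at ZT0 (13690), 9547 to 16346 at ZT2 (14504), 2222 to 19120 at ZT4 (4370), 2561 to 18534 at ZT9 (13825) and 3719 to 14964 at ZT14 (9895). The 12 RPE markers had a median sum of 13040 FPKM at ZT19 and 7277 FPKM at ZT0. The day minus night difference was below 0 in 18 of 20 muscle markers and 11 of 12 RPE markers, and above 0 in 12 of 12 ocular surface markers. It was also below 0 in 11 of 12 endothelial markers, with a median sum of 468 FPKM at ZT19 and 283 FPKM at ZT0, and in 9 of 12 blood and immune markers, with 2317 and 848 FPKM. limma called 0 markers of these 5 lists in any of the 3 tests, and 6, 6, 9, 2 and 5 of the muscle, RPE, ocular surface, endothelial and blood and immune markers had an unadjusted p below 0.05 among time points. No ocular surface marker was at 0 in any sample, and of the muscle and RPE markers only Myh13 and Best1 were, in 3 and 8 samples.

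When the muscle and ocular surface scores (mean log2(FPKM + 1) of each list) were entered as terms of the fit, the nuclear members no longer leaned to one side. Then 36 of 82 nuclear members were below 0, with a median of 0.03, against 50.1% of all genes. In the same limma fit, 3 nuclear members, not 26, had an unadjusted p below 0.05 among time points, where the share of all genes went from 8.67% to 7.15%. With the muscle score alone 43 of 82 were below 0 (median -0.01), and with the ocular surface score alone 59 (-0.07). Other scores left the direction about as it was: 70 of 82 were below 0 with the RPE score (median -0.13) and 68 with the rod and stroma scores (-0.11). With both the muscle and ocular surface scores, the 7 mt- members were still all below 0, with a median of -0.09. In that limma fit 0 mt- members, not 5, had an unadjusted p below 0.05 in day against night, and 0, not 3, among time points. The share of all genes in day against night went from 10.5% to 4.22%. Without the 5 mice of ZT19, night was ZT14 alone, which includes the library that stands apart. In that fit 28 of 82 nuclear and 6 of 7 mt- members were below 0, with medians of 0.09 and -0.10. Of all genes, 44.3% were then below 0, with a median of 0.05. Without the third mouse of ZT14, 66 of 82 and 7 of 7 were below 0, with medians of -0.08 and -0.29, and the members higher at night at an unadjusted p below 0.05 numbered 3 nuclear, not 11, and 2 mt-, not 5. Of all genes, 8.17% then passed that level in either direction, against 10.5% with every mouse. The nuclear direction was thus not seen with the muscle and ocular surface scores, and without ZT19 most nuclear members lay above 0. ZT19 held the highest mean in 65 of 82 nuclear members. For these, taking it out of the night mean raises the difference by construction, so that fit is not a separate check. Time of day and tissue content cannot be told apart at ZT19.

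**Figure D5:**
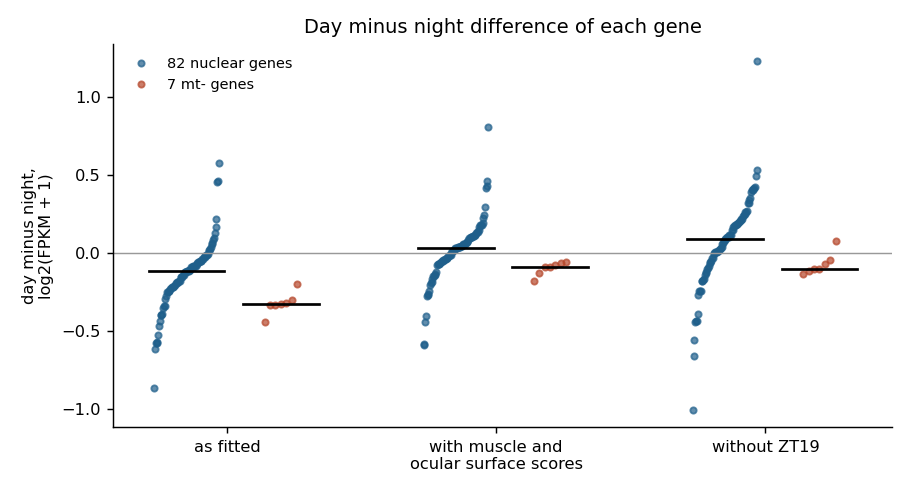
Day minus night difference on the log2(FPKM + 1) scale of each member (points) and the median (bars), as fitted, with the skeletal muscle and ocular surface scores as terms, and without ZT19. Nuclear medians are -0.12, 0.03 and 0.09, and mt- medians are -0.33, -0.09 and -0.10. Without ZT19, night is ZT14 alone.

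No difference of the muscle forms of complex IV passed. Day minus night was -0.57 ± 0.33 for Cox6a2, -0.44 ± 0.29 for Cox7a1 and -0.22 ± 0.24 for Cox8b (± SE, limma, adjusted p = 0.548, 0.604 and 0.787). Without ZT14 replicate 3 they were -0.34, -0.21 and -0.09, and with both scores as terms -0.07, 0.04 and 0.10.

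Genes that build and supply the chain did not pass either. Of 49 tested assembly factors and electron carriers, 28 tested genes for expression and copying of mitochondrial DNA and 15 regulators of mitochondrial gene programmes, limma called 0, 0 and 0 in each of the 3 tests, and 3, 4 and 2 had an unadjusted rhythm p below 0.05. These are 6.12%, 14.3% and 13.3% of the lists, against 8.76% of all genes, of which 0.108% were called. Their day minus night differences were below 0 in 28, 10 and 5 genes (57.1%, 35.7% and 33.3%), against 46.7% of all genes. The medians were -0.08, 0.09 and 0.12, against 0.02 over all genes. The medians of the last 2 lists thus lay on the same side of 0 as that of all genes, and on the other side from that of the subunit genes. The median SE of a gene's difference was 0.29 in each of these 2 lists, and the difference between the lists was not tested. The smallest rhythm p values were those of Pet100 (amplitude 0.96 ± 0.27 SE, adjusted p = 0.364) and Sdhaf1 (0.40 ± 0.12, 0.421), assembly factors of complexes IV and II, of Tefm (0.74 ± 0.22, 0.386) and Fastkd3 (0.82 ± 0.25, 0.431), which act on mitochondrial transcription and RNA, and of Nrf1 (0.51 ± 0.19, 0.55) and Sirt1 (0.40 ± 0.15, 0.559).

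Among the regulators, Nrf1, a transcription factor for nuclear respiratory genes, had a median of 14.0 FPKM and a day minus night difference of 0.70 ± 0.31 (adjusted p = 0.431). Ppargc1a, its coactivator, stood at 9.18 FPKM with -0.44 ± 0.27 (0.565). Esrra, an orphan receptor that works with it, had 65.8 FPKM and 0.24 ± 0.20 (0.695), and Gabpa, an ETS factor, 21.1 FPKM and 0.04 ± 0.34 (0.983). Tfam, which packs and transcribes mitochondrial DNA, had 30.9 FPKM and 0.21 ± 0.32 (0.862; SE and limma in all cases).

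Some nuclear members share letters in their promoters. RefSeq promoters on GRCm38.p6, from 250 bases before to 50 after the start, were found for 68 of the 82. The consensus of the factor NRF1, searched on both strands like the other motifs, was in 17 of the 68 (25%), against 5.19% of 27025 genes with a promoter in the table. That of YY1 was in 5 (7.35% against 0.755%), the ETS letters CCGGAAGT in 5 (7.35% against 4.31%) and the estrogen-related receptor letters TCAAGGTCA in 2 (2.94% against 0.466%), and 25 (36.8% against 10.1%) held at least 1 of the 4, so most held none. The 17 genes with the NRF1 letters came from all 5 complexes and include Ndufs5, Ndufa5, Sdha, Sdhd, Uqcrc1, Cox6a1, Atp5c1 and Atp5h. A match is a description of the letters and not a bound site.

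Stretches of 2 promoters show the NRF1 letters in place, in capitals, 5′ to 3′ along the gene. Only these 2 members had a match before the start in a printed stretch that touched no annotated exon. That of Atp5h, a stalk subunit of the ATP synthase with a median of 578 FPKM, is chr11:115420026-115420085 on the minus strand, and its letters begin 141 bases before the start. That of Ndufs5, an accessory subunit of complex I with a median of 42.6 FPKM, is chr4:123718250-123718309 on the minus strand, and its letters begin 98 bases before the start.
Atp5h: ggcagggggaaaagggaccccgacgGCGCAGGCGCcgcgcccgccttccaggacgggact
Ndufs5: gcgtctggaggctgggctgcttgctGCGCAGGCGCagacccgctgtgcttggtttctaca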

How the data were processed

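RNA-seq values of 30 mouse RPE samples were used. The authors deposited 1 table of FPKM for 51904 genes, written with decimal commas; STAR, Cufflinks, DESeq2 and the build mm10 are named in the submitters' processing notes without versions or roles, and the handling of multiply matching reads is not given in the sources used here. The deposited values carry no counts. Depth was estimated from the step between low values. Genes with at least 1 FPKM in at least 5 samples (16741) were analysed as log2(FPKM + 1), the scale of all differences, in R 4.3.3 by limma 3.58.1, letting the variance follow the mean: a 24 h cosine F test, an F test among 6 time points, and day against night. Tests were two-sided, adjusted by Benjamini-Hochberg over all genes at a threshold of 0.05; a fold on this scale understates changes of low genes. Correlations used permutations in Python 3.11.15 with numpy 2.4.6. Fits were tested on simulated data. Positions and transcripts are from GENCODE M21 (GRCm38), in which all 89 members and 51711 of the table's genes were found.

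Members, lists and markers were chosen with earlier results of these data known. Named were all mt- members, the isoform pairs, the highest and lowest member of each nuclear complex, the 5 smallest p values of each test and, of the other lists, the 2 smallest rhythm p values and 5 chosen regulators; other members appear as counts, as promoter matches, or where a sequence is shown. A member that this rule names is not reported here. Alternatives covered the pseudocount, the filter, the variance trend, 3 scalings, animal number range, eye, marker scores and leaving out each mouse; muscle, ocular surface and RPE scores singly and the removal of ZT19 were chosen after seeing the data.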

Additional observations from a re-analysis of the deposited data

Results flagged for a closer look

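Within each time point the highest or lowest of 5 mice was set against the other 4 by Dixon's test (gap over range above 0.71) for 22 quantities, the mt- members, the isoform pairs and both sums. It marked 11 of 132 groups (8.33%); chance marks about 1 in 20. Of these, 7 are at ZT14. The third mouse there, the library with 557 unexpected zeros, was high in Cox4i1 (3092 FPKM against 1334 to 1677 in the others), Cox7a1 (523 against 87.3 to 140) and the nuclear sum (28404 against 17245 to 19675), and low in Cox6b1 (469 against 609 to 652). The first mouse of ZT14 was low in Cox6a1 (192 FPKM against 266 to 297) and Cox8a (236 against 503 to 536), and the second was low in mt-Nd5 (1553 against 2520 to 2973). Elsewhere, mt-Nd6 was high in a mouse of ZT4 (185 FPKM against 123 to 129), Cox6b2 low in a mouse of ZT2 (15.5 against 46.2 to 56.9), Cox7a2 low in a mouse of ZT19 (362 against 468 to 515) and Cox7b high in a mouse of ZT0 (382 against 205 to 225).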

How the results depend on the processing

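Under all 44 other settings of the 3 limma tests no member passed. Of all genes, 18 were called rhythmic, 12 among time points and 5 in day against night; leaving out 1 mouse gave 14 to 24, 11 to 16 and 4 to 7. Day against night called 1 gene with the muscle and ocular surface scores as terms, 2 with the ocular surface score alone, 3 with the RPE score and 8 without ZT19. The nuclear median of the difference became 0.033 with both scores and 0.0885 without ZT19, and the members below 0 became 36 with both scores, 43 with the muscle score and 28 without ZT19, against 59 with the ocular surface score, 70 with the RPE score, 68 with the rod and stroma scores and 68 as reported. The mt- median became -0.0864 with both scores, -0.143 with the ocular surface score and -0.0999 without ZT19. The difference changed sign in 32 of 82 nuclear members with both scores, 25 with the muscle score, 40 without ZT19 and 12 without ZT14 replicate 3, and in 0, 0, 1 and 0 of 7 mt- members. Among the mt- genes and muscle forms, mt-Nd6 (0.0768) and Cox6a2 (0.172) changed sign without ZT19, Cox7a1 (0.0441) with both scores, and Cox8b with both scores (0.0987), with the muscle score (0.0747) and without ZT19 (0.0913). Rescaling every sample to 1000000 FPKM moved the median nuclear sum from 20402 to 26510.3. Among correlations, r of Cox4i2 was -0.0766 with a pseudocount of 0.1, -0.017 without the 2 farthest samples and -0.335 in the animal range of 9 mice; leaving out 1 mouse it ran from -0.051 to 0.154. In that range Cox6a1 had -0.149, and Cox7a1 (0.748), Cox7a2 (0.705), Cox4i1 (0.718) and Ndufa4 (0.474) did not pass; in the range of 10 mice Ndufa4l2 had 0.0499. Leaving out 1 mouse, r of Cox8a ran from 0.335 to 0.43 and passed in part of these fits. Beyond what the settings themselves change, the causes were not tested. No paired analysis was possible because each library comes from a different mouse. Cox4i2, Ndufa4l2 and Atp5l were at 0 in some samples; the part of depth in this was not tested.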
